A study of Mus musculus with 12 samples.

Results

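The 6 genes Lypd8, Zg16, Retnlb, Ang4, Itln1 and Lyz1 encode secreted or surface proteins that bind or kill gut bacteria. They were chosen by name, as the rows of the deposited gene table whose Ensembl identifiers map to these symbols, and the Reg family of lectins was left out. All 6 were found among 54532 genes, and all 6 were among the 14179 genes tested. Colon mRNA was profiled in wild-type C57BL/6J mice. Of 4 groups with 3 samples each, the first was on a diet abbreviated CD, which no label expands, and the next was on a high-fat diet (HFD). The CD+DSS and HFD+DSS groups had in addition received 2% dextran sulfate sodium (DSS), a compound that damages the lining of the colon and causes colitis. No age, sex or duration is labelled, and it is not stated that samples are separate animals, so p-values measure only the spread between these samples.

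The colon houses a dense community of bacteria, and the epithelium keeps it at a distance with a mucus layer built on the mucin Muc2 and with proteins released into or displayed beside that layer. Lypd8 is a glycosylated, membrane-anchored protein of colonocytes that binds flagella, and Zg16 is a lectin-like goblet cell protein that binds Gram-positive peptidoglycan and aggregates bacteria. Retnlb (RELM-beta), Ang4 (a ribonuclease of the angiogenin family) and Itln1 (intelectin, a lectin for microbial sugars) are secreted by goblet cells, and Ang4 and Itln1 are also made by Paneth cells of the small intestine. Lyz1 is the Paneth cell lysozyme, an enzyme that cuts peptidoglycan, and its near copy Lyz2 is the lysozyme of macrophages.

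Sequences of Ang4, Itln1, Lyz1 and Lyz2 are shown as background. Ang4 and Itln1 had similar courses across libraries, and Lyz1 has to be told from Lyz2. The upstream stretches were not used in any comparison of levels. The upstream stretches are the 250 bases before the RefSeq start on GRCm38.p6, both on the minus strand, at chr14:51773591-51773840 for Ang4 and at chr1:171535295-171535544 for Itln1. Capitals mark the letters TTCNNNGAA in Ang4 (the pattern of a STAT3 site), 192 to 184 bases before the start, and CATAAA in Itln1, 29 to 24 bases before the start, which is TTTATG on the other strand (the pattern of a CDX2 site).
Ang4 upstream: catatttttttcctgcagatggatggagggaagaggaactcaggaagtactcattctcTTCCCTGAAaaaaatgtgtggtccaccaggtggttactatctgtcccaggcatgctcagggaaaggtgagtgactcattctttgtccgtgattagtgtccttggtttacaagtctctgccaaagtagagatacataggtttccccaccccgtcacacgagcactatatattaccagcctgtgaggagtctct
Itln1 upstream: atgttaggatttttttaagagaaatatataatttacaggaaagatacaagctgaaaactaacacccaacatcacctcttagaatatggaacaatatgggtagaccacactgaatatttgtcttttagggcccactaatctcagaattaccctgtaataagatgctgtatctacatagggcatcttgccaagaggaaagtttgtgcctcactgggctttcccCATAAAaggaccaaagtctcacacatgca
Searched on both strands in all 32851 windows of this length, TTCNNNGAA was present in 7.02% and TTTATG in 10.8%. The letters TATAAA (12.4% of windows), the STAT6-like pattern of TTC and GAA with 4 bases between them (5.85%) and AGATAA (9.99%) were absent from both stretches, and neither marked match overlapped another match. The 2 stretches thus shared none of the 5 patterns searched, and a match describes letters only. Variants of these patterns, such as other TATA-like letters, were not searched. Windows were found for Lypd8, Ang4, Itln1 and Lyz1, which are 4 of the 6 genes. The first 150 coding bases of Lyz1 and Lyz2 are shown with the 14 differing bases in capitals.
Lyz1 coding: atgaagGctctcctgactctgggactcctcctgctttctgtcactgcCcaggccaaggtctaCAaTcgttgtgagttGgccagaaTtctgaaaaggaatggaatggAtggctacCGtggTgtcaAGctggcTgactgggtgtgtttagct
Lyz2 coding: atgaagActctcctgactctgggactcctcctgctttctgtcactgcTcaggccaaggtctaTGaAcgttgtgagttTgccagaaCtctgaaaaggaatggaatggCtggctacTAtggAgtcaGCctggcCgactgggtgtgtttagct
Over the full 447 coding bases 22 differed (95.1% identity), and the longest identical run was 118 bases. Of all 50-base words in the Lyz1 transcripts, 16.1% also occurred in Lyz2, so reads of that length from those places could be assigned to either gene. The same share was 4.70% for Ang4 (with Ang2 and Ang5), 0.972% for Itln1 (with the predicted gene Gm9765) and 0% for Lypd8, Zg16 and Retnlb.

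Values are FPKM, fragments scaled to transcript length and library size, so levels can be compared between genes. Between 14700000 and 17900000 fragments fell on genes per library, and intervals from fragment counts cover counting error only. In bulk colon, fewer cells of a type and less RNA per cell cannot be told apart. The libraries also differed in Hoxa13, Hoxb13 and Hoxd13, Hox genes expressed toward the anal end of the gut, and these differences also ran between libraries of the same group. Averaged over these genes on the log2 scale, the posterior Hox level was 3.63, 5.11 and 3.13 for CD libraries, 1.23, 1.37 and 3.53 for HFD, 3.26, 0.47 and 1.21 for CD+DSS, and 3.80, 3.74 and 4.57 for HFD+DSS. All of 12 colonocyte markers and 12 goblet cell markers were high enough to be tested, while 9 of 11 Paneth cell markers were too low to test. That filter runs over all libraries together and does not check the identity of a single sample.

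Lypd8 (ENSMUSG00000013643, mm10 chromosome 11, 58379043 to 58390728, plus strand) was the most abundant of the 6 genes in every library. It was at 6778, 8524 and 4266 FPKM in the CD libraries, 4445, 3999 and 4719 for HFD, 6586, 10162 and 4167 for CD+DSS, and 10527, 5334 and 3974 for HFD+DSS. The groups overlapped in every comparison, and the high libraries were 1 HFD+DSS, 1 CD+DSS and 1 CD library. Among all genes Lypd8 ranked 2nd to 6th by FPKM and took 0.543% to 1.20% of the fragments over genes. DSS against no DSS differed by log2 0.06 ± 0.43 (SE) under CD and by 0.47 ± 0.43 under HFD. HFD against CD differed by -0.52 ± 0.43 without DSS (-0.80 to -0.30 with 1 library left out) and by -0.11 ± 0.43 with it. Of the 6 genes Lypd8 had the narrowest range, with the highest library at 2.65 times the lowest.

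Zg16 (ENSMUSG00000049350, chromosome 7, 127050156 to 127087328, minus strand) was at 683, 876 and 967 FPKM in the CD libraries, 928, 357 and 1458 for HFD, 1645, 1262 and 721 for CD+DSS, and 2682, 1596 and 964 for HFD+DSS. The group means stood in the order HFD+DSS, CD+DSS, then CD and HFD on the log2 scale, and neighbours in that order overlapped. With DSS averaged over diets the Zg16 estimate was log2 0.74 ± 0.37 (limma adjusted p = 0.244), and it was 0.46 without HFD replicate 2 and 0.97 without HFD replicate 3. Under HFD alone the DSS difference was 1.03 ± 0.52 (limma adjusted p = 0.409), and under CD it was 0.46 ± 0.52, with ranges of 0.46 to 1.48 and 0.19 to 0.79 when 1 library was left out. The span of Zg16 is overlapped on the other strand by the non-coding genes Gm44939 and Gm22747, and whether counting used strand is not given in the sources used here.

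Ang4, Itln1 and Retnlb had their lowest group means in HFD+DSS, and none of them passed the adjusted threshold. Zg16, also a goblet cell product, had its highest group mean there. Ang4 (ENSMUSG00000060615, chromosome 14, 51763878 to 51773590, minus strand) was at 238, 262 and 3194 FPKM in the CD libraries, 126, 144 and 15.9 for HFD, 113, 41.4 and 89.2 for CD+DSS, and 21.8, 16.8 and 2.88 for HFD+DSS. All 3 CD libraries were above all libraries of the other groups, and CD replicate 3 was 12.8 times the mean of the other CD libraries. The highest library was 1108 times the lowest, the widest range of the 6 genes, and Ang4 ranked from 11th to 9877th among all genes.

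Itln1 (ENSMUSG00000038209, chromosome 1, 171518122 to 171535294, minus strand) was at 5.36, 5.97 and 76.4 FPKM in the CD libraries, 3.25, 9.84 and 1.60 for HFD, 1.96, 4.29 and 1.88 for CD+DSS, and 0.230, 0.740 and 0.551 for HFD+DSS. The HFD+DSS libraries lay below all 9 others, and again CD replicate 3 stood highest, at 13.5 times the mean of the other CD libraries. The HFD+DSS levels rest on few fragments: 4 (exact Poisson 95% interval 1.09 to 10.2), 15 (8.40 to 24.7) and 12 (6.20 to 20.96).

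Retnlb (ENSMUSG00000022650, chromosome 16, 48816856 to 48818892, plus strand) was at 330, 366 and 1300 FPKM in the CD libraries, 186, 366 and 140 for HFD, 326, 493 and 501 for CD+DSS, and 163, 192 and 92.7 for HFD+DSS. All HFD+DSS libraries lay below all CD+DSS and all CD libraries, while HFD overlapped with each other group and CD with CD+DSS. CD replicate 3 was 3.74 times the mean of the other CD libraries. The same library was not high in the rest of the set, with Zg16 at 1.24, Lyz1 at 0.623 and Lypd8 at 0.558 times that mean.

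**Figure D1:**
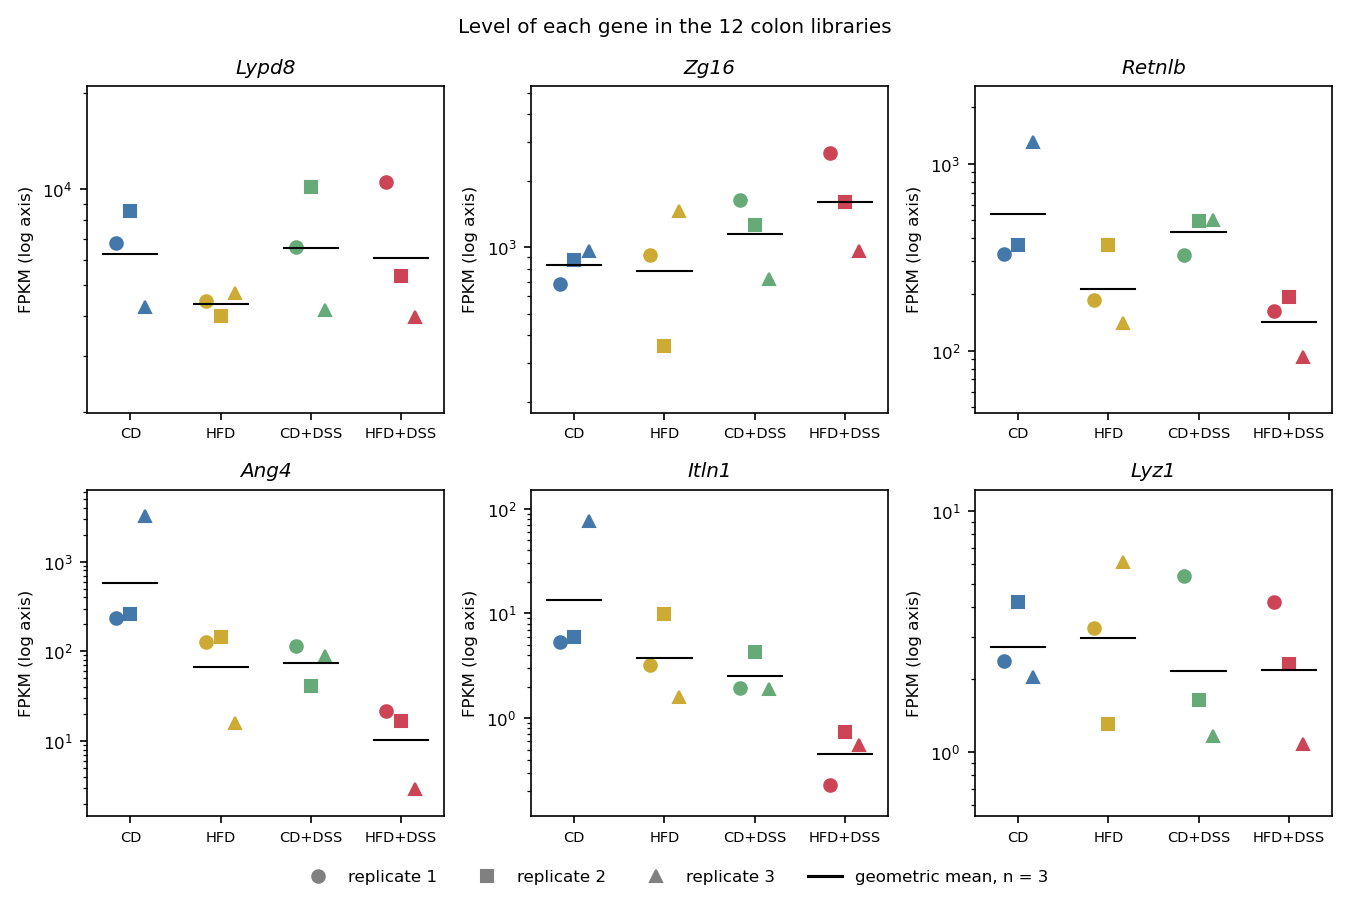
FPKM of each of the 6 genes (1 panel each, log axis) in the 12 libraries, by group, with marker shapes for replicate numbers and lines at the geometric mean (n = 3). Ang4 runs from 2.88 to 3194 FPKM and Itln1 from 0.230 to 76.4 with CD replicate 3 highest in both, while Lypd8 stays between 3974 and 10527.

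Lyz1 (ENSMUSG00000069515, chromosome 10, 117287797 to 117292868, minus strand) was low in the colon, at 2.37, 4.18 and 2.04 FPKM in the CD libraries, 3.28, 1.30 and 6.14 for HFD, 5.35, 1.64 and 1.17 for CD+DSS, and 4.20, 2.32 and 1.08 for HFD+DSS. The groups overlapped in every comparison, and each held a library above 4 FPKM. Its neighbour Lyz2 (117277331 to 117282321) was at 81.1 to 398 FPKM in the same libraries, and whether reads of Lyz2 entered the Lyz1 value was not tested. Lyz1 differed by log2 -0.18 ± 0.49 with DSS under CD and by -0.32 ± 0.49 under HFD. Of 11 Paneth cell markers only Mmp7, a protease, and Pla2g2a, a secreted phospholipase, were tested, and 7 to 9 of the 11 were at 0 in each library. The summed FPKM of that list was 8.15 to 14.1 for CD, 3.35 to 5.92 for HFD, 7.58 to 11.9 for CD+DSS and 14.6 to 46.3 for HFD+DSS. Pla2g2a rose with DSS under HFD (log2 3.07 ± 0.45, limma adjusted p = 0.0308), from 1.80 ± 0.74 to 25.6 ± 17.9 FPKM (SD, n = 3), and made up most of the list's sum in the HFD+DSS libraries. Mmp7 had an estimate of -0.68 ± 0.51 in the same comparison. HFD libraries 1 and 2 had low posterior Hox, at 1.23 and 1.37, and the HFD+DSS libraries high posterior Hox, at 3.74 to 4.57. The part of position in the Pla2g2a difference was not tested. Under CD the DSS estimates were -0.55 ± 0.45 for Pla2g2a and 0.80 ± 0.51 for Mmp7, and neither was called.

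The first question was how the 6 genes stood with DSS under each diet. In CD+DSS against CD, Ang4 and Itln1 lay lower in every DSS library, with mean FPKM of 81.3 ± 36.7 against 1231 ± 1700 and of 2.71 ± 1.37 against 29.2 ± 40.8 (SD, n = 3). Limma called 0 of the 6 genes, against 0.0846% of all genes tested, and 2 of 6 were at an unadjusted p under 0.05, against 15.2% of all genes. The same 2 of 6 did not overlap in the lower direction, which 10.4% of all genes also did. The estimates were log2 -2.95 ± 1.09 for Ang4 (limma adjusted p = 0.257) and -2.08 ± 0.82 for Itln1 (limma adjusted p = 0.278). Without CD replicate 3 they were -1.72 and -0.90, and the Retnlb estimate went from -0.32 ± 0.52 to 0.31. CD+DSS replicates 2 and 3 had low posterior Hox, and with that level as a covariate the estimates were -4.51 for Ang4, -3.40 for Itln1 and -1.28 for Retnlb, again with 0 of 6 genes called.

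In HFD+DSS against HFD, Itln1 did not overlap, at 0.507 ± 0.258 against 4.89 ± 4.36 FPKM, and Ang4 overlapped at 13.8 ± 9.8 against 95.3 ± 69.3 (SD, n = 3). HFD replicate 3, at 15.9 FPKM of Ang4, was the library that fell among the HFD+DSS values. By limma, 0 of 6 genes were called (0.339% of all genes), and only Ang4 was at an unadjusted p under 0.05 (13.6% of all genes), with log2 -2.54 ± 1.09 (limma adjusted p = 0.350). For Itln1 the estimate was -1.72 ± 0.82 (limma adjusted p = 0.387). The share of all genes whose HFD+DSS libraries lay below all HFD libraries was 7.6%. HFD libraries 1 and 2 had low posterior Hox and the HFD+DSS libraries high posterior Hox, and with that level as a covariate the estimates were -1.19 for Ang4 and -0.59 for Itln1.

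Averaged over the diets, the DSS difference was log2 -2.74 ± 0.77 for Ang4 (limma adjusted p = 0.0782) and -1.90 ± 0.58 for Itln1 (limma adjusted p = 0.0939). None of the 6 (0 of 6) was called by limma, against 2.74% of all genes, and these 2 of 6 were at an unadjusted p under 0.05 (23.5% of all genes). Without HFD replicate 3 Ang4 passed, at -3.24 with a limma adjusted p of 0.04996. Over all genes, limma called 389 in this contrast with all libraries, and 115 to 479 with 1 library left out. The remaining estimates were -0.44 ± 0.37 for Retnlb, 0.26 ± 0.30 for Lypd8 and -0.25 ± 0.35 for Lyz1. Single libraries moved these, to -0.13 for Retnlb without CD replicate 3, to 0.066 for Lypd8 without HFD+DSS replicate 1 and to -0.056 for Lyz1 without HFD replicate 3. Whether the DSS difference itself depended on diet was asked with the interaction, for which limma called 0 of 6 genes and 0% of all genes, with 0 of 6 at an unadjusted p under 0.05 (5.42% of all genes).

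**Figure D2:**
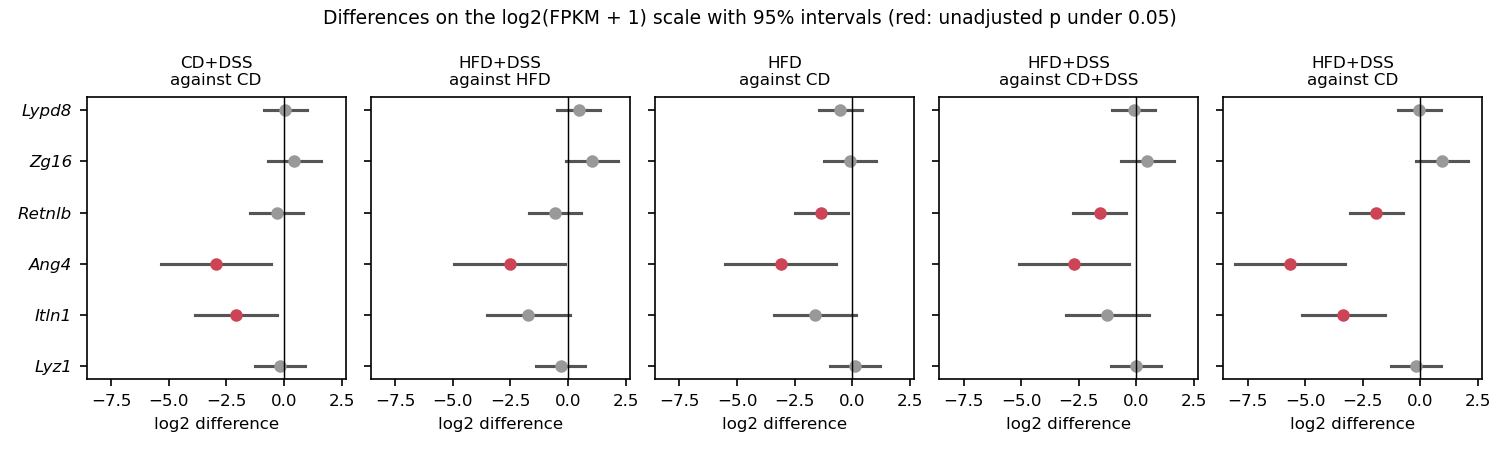
Differences on the log2(FPKM + 1) scale (x axis) for the 6 genes (y axis), 1 panel per comparison, with 95% intervals from limma and red for an unadjusted p under 0.05. Ang4 is left of 0 in every comparison of groups, from -2.54 to -5.65, with wide intervals. Lypd8 runs from -0.52 to 0.47 and Lyz1 from -0.32 to 0.13, with intervals that include 0.

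For diet without DSS, Ang4 in HFD lay below all CD libraries, and limma called 0 of 6 genes and 0% of all genes. Ang4 (log2 -3.11 ± 1.09, limma adjusted p = 0.979) and Retnlb (-1.34 ± 0.52, limma adjusted p = 1) were 2 of 6 at an unadjusted p under 0.05, against 4.15% of all genes. Of the 6 only Ang4 did not overlap, and 5.02% of all genes were likewise apart in the lower direction. Without CD replicate 3 the estimates were -1.89 for Ang4 and -0.71 for Retnlb, and Itln1 went from -1.61 ± 0.82 to -0.43. HFD replicates 1 and 2 had low posterior Hox, and with that covariate the estimates were -4.41 for Ang4, -2.14 for Retnlb and -2.70 for Itln1.

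For diet with DSS, the HFD+DSS libraries were below all CD+DSS libraries for Ang4, Itln1 and Retnlb, which are 3 of 6 genes against 5.85% of all genes in that direction. Mean Retnlb was 150 ± 51 FPKM in HFD+DSS and 440 ± 99 in CD+DSS (SD, n = 3). Limma called 0 of 6 genes and 0% of all genes, and Ang4 (log2 -2.70 ± 1.09, limma adjusted p = 0.740) and Retnlb (-1.59 ± 0.52, limma adjusted p = 0.722) were at an unadjusted p under 0.05, as were 6.62% of all genes. Posterior Hox was 0.47 to 3.26 in the CD+DSS libraries and 3.74 to 4.57 in the HFD+DSS libraries, without overlap. With that level as a covariate the estimates were -1.08 for Ang4, -0.59 for Retnlb and 0.11 for Itln1, against -1.25 ± 0.82 without it.

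The groups with both and with neither of HFD and DSS were compared after values had been seen, and this comparison shares its libraries with those above. Ang4 was 13.8 ± 9.8 FPKM in HFD+DSS and 1231 ± 1700 in CD (SD, n = 3), Itln1 0.507 ± 0.258 and 29.2 ± 40.8, and Retnlb 150 ± 51 and 665 ± 550. All 3 genes did not overlap, against 7.88% of all genes in the lower direction. Of the 6 genes 0 were called by limma (0.134% of all genes), and the same 3 were at an unadjusted p under 0.05 (12.6% of all genes). The differences were log2 -5.65 ± 1.09 for Ang4 (limma adjusted p = 0.0805), -3.34 ± 0.82 for Itln1 (adjusted p = 0.157 by limma) and -1.91 ± 0.52 for Retnlb (adjusted p = 0.195 by limma). Without CD replicate 3 the differences were -4.43 for Ang4, -2.16 for Itln1 and -1.28 for Retnlb, and with the posterior Hox covariate they were -5.60, -3.29 and -1.88; the Hox levels of these groups overlapped.

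Diet averaged over DSS was also added after values had been seen. Retnlb differed by log2 -1.46 ± 0.37 (limma adjusted p = 0.771), Ang4 by -2.91 ± 0.77 (limma adjusted p = 0.827) and Itln1 by -1.43 ± 0.58 (adjusted p = 0.976 by limma). In this contrast limma called 0 of 6 genes and 0% of all genes, and these 3 of 6 were at an unadjusted p under 0.05 against 4.67% of all genes. Lypd8, Zg16 and Lyz1 had estimates of -0.31 ± 0.30, 0.20 ± 0.37 and 0.06 ± 0.35. Without CD replicate 3 the estimates were -0.84 for Itln1, -2.30 for Ang4 and -1.15 for Retnlb, and the Lypd8 estimate was -0.15 without CD+DSS replicate 2.

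**Figure D3:**
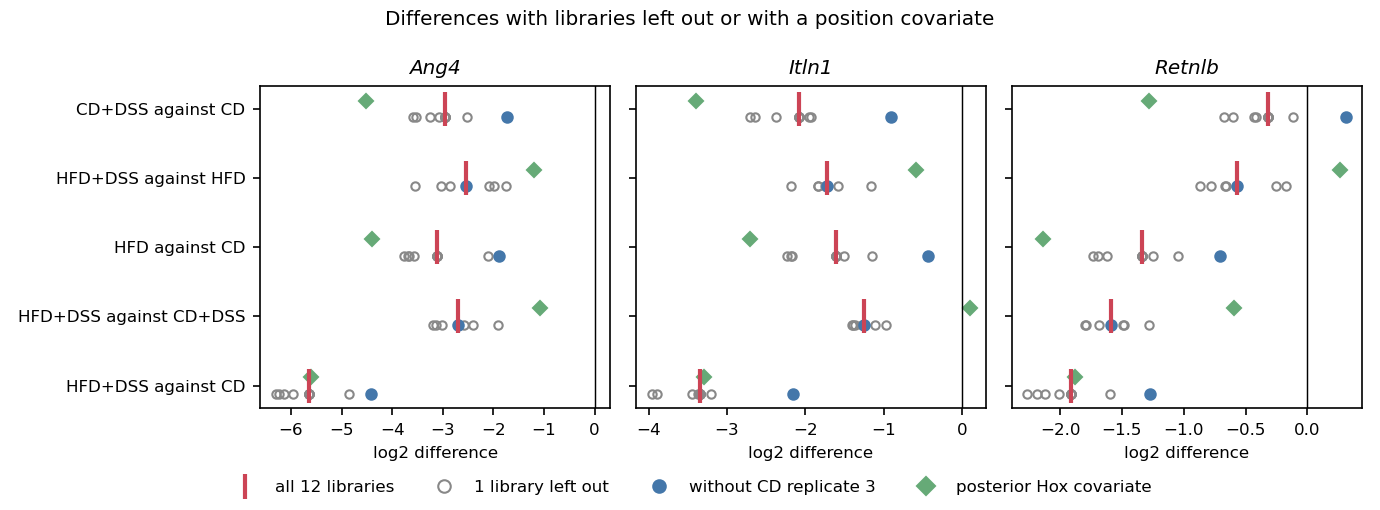
Log2 differences of Ang4, Itln1 and Retnlb (x axis) by comparison (y axis), with all 12 libraries (red bars), with 1 library left out (open circles, blue without CD replicate 3) and with the posterior Hox level as a covariate (green diamonds). Ang4 stays below 0 throughout, while Retnlb in CD+DSS against CD moves from -0.32 to 0.31 without CD replicate 3.

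Ang4, Itln1 and Retnlb shared a course across libraries that Lypd8, Zg16 and Lyz1 did not. Over the 12 libraries Ang4 and Itln1 had a Pearson r of 0.89 on the log2 scale, Retnlb and Ang4 0.86, and Retnlb and Itln1 0.83. Without CD replicate 3 these were 0.78, 0.75 and 0.66. Zg16 ran the other way from Itln1 (r = -0.49), although both are goblet cell products, and Lypd8 had an r of -0.05 with Ang4. These are descriptions over libraries that share groups, diets and position, and carry no test.

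Goblet cell markers were measured beside these genes, and their part in the differences was not tested. The summed FPKM of the 12 markers was 3830 to 8761 in CD, 2786 to 3852 in HFD, 3106 to 4648 in CD+DSS and 2335 to 4053 in HFD+DSS, no marker was at 0 in any library, and CD replicate 3 had the highest sum. Limma called 0 of 12 markers in every comparison. In HFD+DSS against CD+DSS, groups whose posterior Hox levels did not overlap, 6 of 12 were lower at an unadjusted p under 0.05. Of all genes 6.62% were at such a p there in either direction. Likewise 6 of 12 were lower in HFD+DSS against CD (12.6% of all genes) and 7 of 12 with diet averaged over DSS (4.67%). In each of these comparisons 0 of 12 were higher at such a p. Muc2 was 357 ± 49 FPKM in HFD+DSS and 936 ± 304 in CD+DSS (SD, n = 3), a difference of log2 -1.35 ± 0.31 (limma adjusted p = 0.700). Not all markers went that way in this comparison, where 9 of 12 had negative and 3 had positive estimates. The positive ones were Tff3 (log2 0.36 ± 0.43), Fcgbp (0.17 ± 0.51) and Clca1 (0.11 ± 0.70). Set against Muc2 in the same library, Ang4 FPKM was 21.5%, 51.2% and 416% of it for CD, 21.04%, 17.8% and 2.35% for HFD, 13.0%, 3.26% and 13.3% for CD+DSS, and 5.44%, 5.53% and 0.790% for HFD+DSS. Ang4 per Muc2 was higher in all 3 CD libraries than in any other library, though by little between the lowest CD and the highest HFD library. Zg16 per Muc2 was highest in HFD+DSS, at 264% to 669%, the group in which Muc2 itself was lowest.

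**Figure D4:**
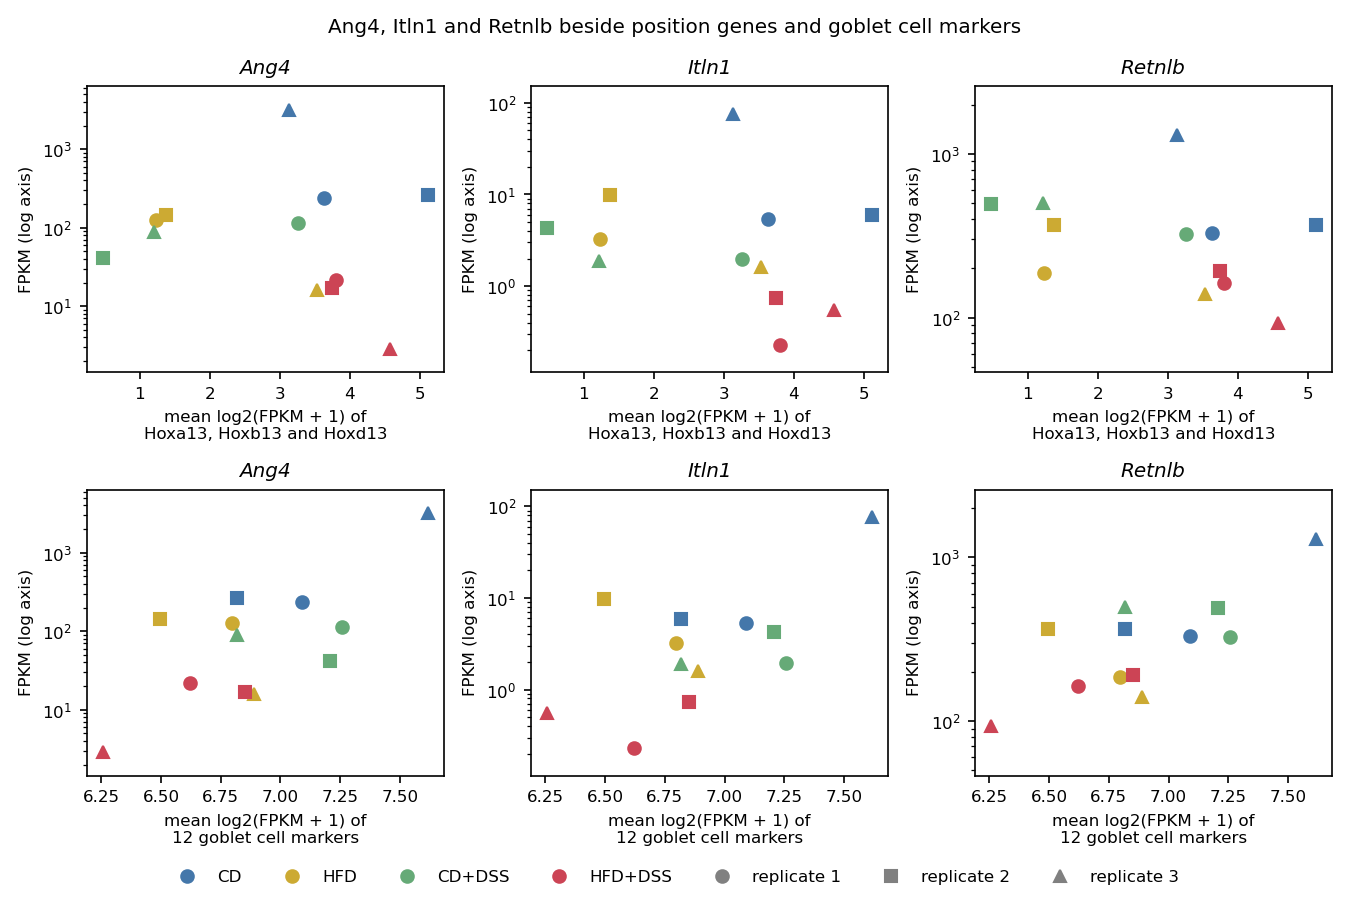
FPKM of Ang4, Itln1 and Retnlb (y axes, log) in the 12 libraries. The x axes are the posterior Hox level (mean log2 over the 3 Hox genes) and the mean log2 over the 12 goblet cell markers. The CD library with a goblet cell mean log2 of 7.62 is the highest point for all 3 genes. HFD+DSS libraries, with Hox levels of 3.74 to 4.57, are the lowest for Itln1.

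The genes whose levels were most like each member over the 12 libraries differed by member. For Lypd8 they were Plac8 (r = 0.95), Ctss (0.93), Hsh2d (0.92), Tnik (0.91) and Zc3hav1 (0.90), and for Zg16 the goblet cell trefoil factor Tff3 (0.95), Cycs (0.88), Rab27a (0.86), Spink1 (0.85) and Mrpl40 (0.85). For Ang4 they were Igf2r (0.96), Itln1 (0.89), Cracr2a (0.88), Sh2b3 (0.88) and Grpr (0.87). Igf2r and Cracr2a recurred for Itln1, with Pla2g4c (0.92) closest, and Igf2r recurred for Retnlb, with Ubr2 (0.90) closest. Nothing exceeded 0.86 for Lyz1, for which Nsun6 was closest.

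Other antibacterial and barrier genes of the colon were followed in a list of 26, of which 21 were tested. Averaged over diets limma called 9 of them higher and 0 lower (1.87% of all genes were called higher), with a median log2 difference of 1.07 over the list against 0.01 over all genes. The list was chosen with earlier results of these data known, so its counts are descriptions and no test of the list against all genes. Nos2, the inducible nitric oxide synthase, rose by 3.35 ± 0.37, and Saa3, a serum amyloid A gene, by 3.36 ± 0.43. Lcn2, which sequesters bacterial siderophores, rose by 1.92 ± 0.28, and the mucosal scavenger gene Dmbt1 by 1.05 ± 0.15. Pglyrp1, a peptidoglycan recognition protein, the oxidase pair Duox2 and Duoxa2, the fucosyltransferase Fut2 and the antiprotease Slpi were the other called genes. Counted again by settings chosen after values had been seen, the number called higher was 9 without CD replicate 3 and 9 with the posterior Hox covariate. The count under the remaining settings is not given here. Over all genes, the number called in this contrast ran from 115 to 479 with 1 library left out. Neutrophil markers had positive estimates in the same contrast, and Lcn2, Pglyrp1 and Slpi are known to be made by neutrophils as well as by epithelium. Of 8 listed markers 4 were tested, and all 4 were at an unadjusted p under 0.05, against 23.5% of all genes. The median of the 4 was log2 2.20. Only S100a9 was called, at 2.46 ± 0.40 (limma adjusted p = 0.0123), where 1.87% of all genes were called higher. The summed FPKM of the 8 markers was 23.9 to 166 for CD, 3.55 to 60.0 for HFD, 39.5 to 108 for CD+DSS and 98.9 to 563 for HFD+DSS. The part of neutrophils in the antibacterial list was not tested.

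Within single diets, limma called Saa3 higher in CD+DSS against CD (1 of 21, against 0.0705% of all genes) and Nos2, Wfdc18, Slpi and Pglyrp1 higher in HFD+DSS against HFD (4 of 21, against 0.247% of all genes). Slpi was at 8.67, 6.48 and 11.7 FPKM in HFD and at 123, 42.9 and 40.0 in HFD+DSS. Mptx1, a mucosal pentraxin, had the lowest DSS estimate of the list averaged over diets, where 3 of 21 genes were below 0. It was at 1544, 1407 and 5399 FPKM in the CD libraries, 80.5, 130 and 187 for HFD, 231, 1.76 and 0.420 for CD+DSS, and 181, 126 and 224 for HFD+DSS. As for Ang4, all CD libraries were above all others, with CD replicate 3 highest. The DSS difference of Mptx1 was log2 -7.87 ± 1.45 under CD (limma adjusted p = 0.0717) and 0.45 ± 1.45 under HFD, with an average of -3.71 ± 1.03 (limma adjusted p = 0.0747) that held under neither diet and an interaction of 8.33 ± 2.05 (limma adjusted p = 0.560). The CD+DSS libraries with Mptx1 near 0, replicates 2 and 3, were also those with Hoxb13 near 0 in that group, at 0.0336 and 0.122 FPKM against 22.5 in replicate 1, and the part of position in this was not tested.

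For diet, limma called 0 of these 21 genes, without DSS or with it. At an unadjusted p under 0.05 were 6 of 21 without DSS, all lower in HFD (4.15% of all genes in either direction), and 6 of 21 with DSS, all higher in HFD+DSS (6.62%). Hoxb13 had the same signs, at log2 -3.61 ± 1.23 without DSS and 3.78 ± 1.23 with it, and its part in these counts was not tested. The smallest p without DSS belonged to Wfdc18 (log2 -1.05 ± 0.31), Mptx1 (-4.17 ± 1.45) and Wfdc2 (-1.24 ± 0.50), of which Wfdc18 and Wfdc2 are whey acidic protein family genes, and with DSS to Slpi (1.69 ± 0.45), Saa1 (1.68 ± 0.45) and Wfdc18 (1.08 ± 0.31). In HFD+DSS against CD only Nos2 was called (log2 3.78 ± 0.52, limma adjusted p = 0.0213).

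**Figure D5:**
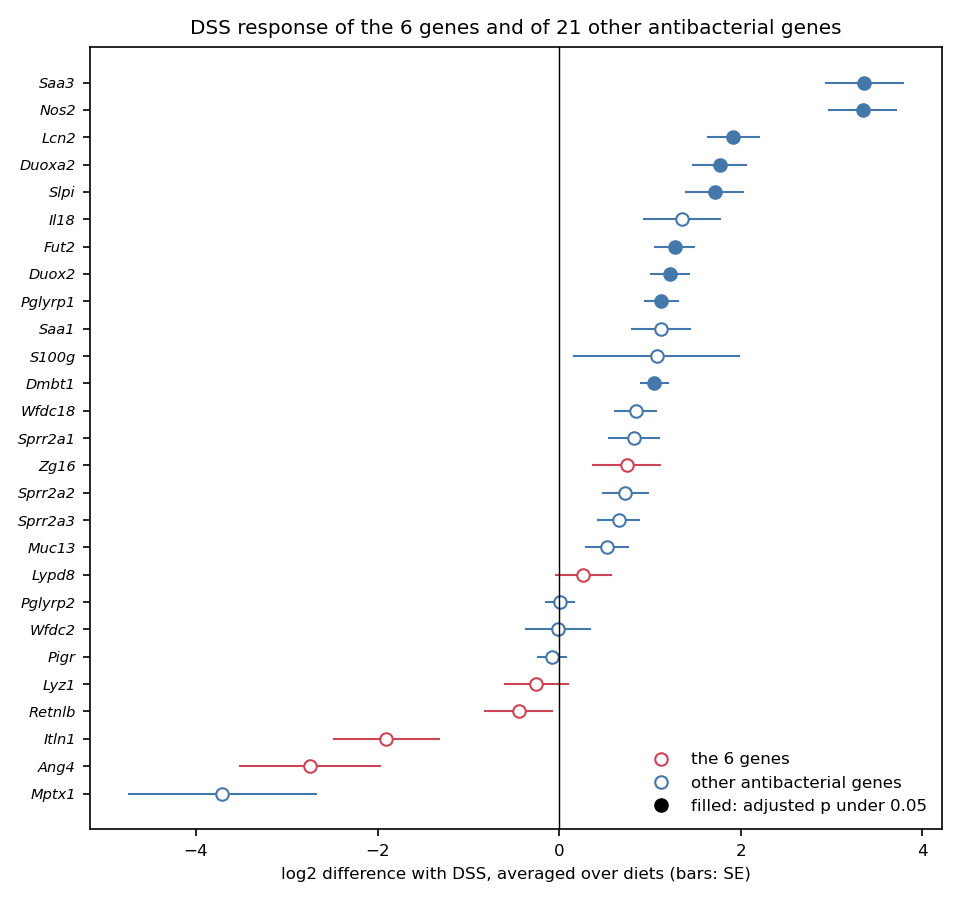
Log2 difference with DSS averaged over diets (x axis, bars are SE) for the 6 genes (red) and 21 other antibacterial genes (blue), filled where the limma adjusted p was under 0.05. The filled points are 9 blue genes, all right of 0, and Ang4 and Itln1 lie at -2.74 and -1.90. Both sets were chosen with earlier results of these data known.

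Genes known to act upstream of the set, such as type 2 cytokines, interleukin 22 and their receptors, were followed in a list of 24, of which 17 were tested. This list too was chosen with earlier results of these data known, so its counts are descriptions. Averaged over diets limma called 4 higher and 0 lower, against 1.87% of all genes called higher: the transcription factor Stat3 (log2 0.74 ± 0.10), the interleukin 4 receptor Il4ra (0.95 ± 0.13), the Toll-like receptor adaptor Myd88 (0.57 ± 0.11) and the inflammasome gene Nlrp6 (0.58 ± 0.13). Il4ra was called in CD+DSS against CD and Stat3 in HFD+DSS against HFD. Il13, a cytokine that induces Retnlb, had group means of 0 to 0.116 FPKM and was too low to test. The count of 4 was 2 to 4 with 1 library left out, a check added after values had been seen.

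Relatives of the 6 genes, also listed with earlier results of these data known, numbered 18, of which 8 were tested. Retnla, a resistin family gene like Retnlb, fell by 2.00 on the log2 scale with DSS averaged over diets (SE 0.45, limma adjusted p = 0.0427) and was the 1 relative called (0.875% of all genes were called lower). It was at 4.20, 1.91 and 14.6 FPKM in the CD libraries, 13.1, 8.71 and 10.4 for HFD, 3.04, 0.742 and 0.336 for CD+DSS, and 0, 3.20 and 1.31 for HFD+DSS. The HFD libraries were above all 6 DSS libraries, and the CD libraries overlapped with both other sets. Retnla is limited by depth, with 31, 6 and 3 fragments in the CD+DSS libraries and 0, 34 and 15 in the HFD+DSS libraries.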

How the data were processed

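Colon mRNA of 12 mouse samples in 4 groups of 3 was analysed from 1 table of FPKM per gene that the authors deposited; per the submitters' processing notes the build was mm10. The aligner, counter and annotation were not stated in the sources used here. Symbols and positions came from GENCODE M21. FPKM steps gave whole fragments within 0.1 for 97.0% to 97.2% of values, and the median ratio to the mean library was 1.009 in every library, so the deposited FPKM were already scaled to equal medians. Promoter windows came from RefSeq.

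Values were analysed as log2(FPKM + 1), which understates changes of low genes, in R 4.3.3 with limma 3.58.1 (trend, 1 mean per group, all 12 samples), on 14179 genes with 3 or more samples at FPKM 1 or above. The threshold for a call was 0.05 after Benjamini-Hochberg adjustment over these genes, and SE are from limma. The script was tested on simulated data. Alternatives were a pseudocount of 0.1, no filter, each group pair alone, a replicate block, a posterior Hox covariate, limma-voom on recovered fragments, and leaving out each library. Figures used Python 3.11.15 and matplotlib 3.10.9.

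The 6 genes and all lists were chosen with earlier results of these data known. Named genes were the 6 genes, every called gene of a list or otherwise up to 3 with the smallest p, and the 5 genes most correlated with each member; Muc2 and Il13 were singled out after values were seen. Limma called 0 of 12 colonocyte, 0 of 10 macrophage, 0 of 8 smooth muscle and 0 of 3 Hox genes in any comparison, and of 4 tested neutrophil genes S100a9 was called higher with DSS averaged over diets.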

Additional observations from a re-analysis of the deposited data

How the results depend on the processing

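Of 504 values with 1 library left out, 476 kept direction and side of the threshold, 27 reversed and 1 became called; of 240 under the other alternatives, 233 kept both and 7 reversed. Ang4 was below 0 in every one. The 1 call was Ang4 with DSS averaged over diets, so 1 of 6 genes was called without HFD replicate 3 (0 to 1 over the libraries left out). With the Hox covariate the reversed log2 values were Itln1 0.11 and Zg16 -0.057 (HFD+DSS against CD+DSS), Lyz1 0.78 (CD+DSS against CD), Retnlb 0.26 (HFD+DSS against HFD), Zg16 0.35 (HFD against CD) and Lyz1 -0.034 (diet averaged); with pseudocount 0.1 Lyz1 was 0.0091 (HFD+DSS against CD+DSS). With 1 library left out, the ranges that crossed 0 were, in CD+DSS against CD, Lypd8 -0.26 to 0.38, Lyz1 -0.65 to 0.12 and Retnlb -0.68 to 0.31. They were Lyz1 -0.75 to 0.072 in HFD+DSS against HFD, and Lyz1 -0.26 to 0.56 and Zg16 -0.53 to 0.48 in HFD against CD. In HFD+DSS against CD+DSS they were Lypd8 -0.50 to 0.21 and Lyz1 -0.34 to 0.46, in HFD+DSS against CD Lypd8 -0.45 to 0.26 and Lyz1 -0.52 to 0.14, and for diet averaged Lyz1 -0.13 to 0.30 and Zg16 -0.023 to 0.48. The cause was not tested.

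Over all genes, limma called 12 genes in CD+DSS against CD (0 to 36 with 1 library left out, 0 to 15 otherwise), 48 in HFD+DSS against HFD (1 to 78, 1 to 49), 389 with DSS averaged (115 to 479, 162 to 462) and 19 in HFD+DSS against CD (1 to 50, 3 to 22). Replicate numbers gave no sign of pairing: deviations of same-numbered samples correlated at -0.46 to 0.20, and 1 of 12 libraries was closest to its own number. No label states a pairing, and this check cannot show that there was none. Limma-voom called 0 of 6 genes in every comparison. With the replicate block limma called 0 of 6 genes in every comparison, and 2, 12, 162 and 7 of all genes in those 4. Fits of a group pair alone do not apply to the averaged and interaction comparisons and were not run there. Itln1 at 4 to 15 fragments in HFD+DSS is limited by depth.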
